A study of Arabidopsis thaliana with 8 samples.

Results

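The genes described here are the CHR genes of Arabidopsis thaliana, named for chromatin remodeling and a number, as measured in germinating seedlings. They were chosen as the probe sets that the platform annotation assigns to a single gene whose symbol is CHR followed by digits. This gave 7 genes of 12916 genes with such a probe set on the array, each through 1 probe set: CHR17 (AT5G18620, probe set 249997_at), CHR18 (AT1G48310, 262233_at), CHR23 (AT5G19310, 246095_at), CHR24 (AT5G63950, 247310_at), CHR34 (AT2G21450, 263745_at), CHR40 (AT3G24340, 257167_at) and CHR42 (AT5G20420, 246077_at). The gene table carries 13 genes with a CHR symbol, and the other 6 had no probe set named here. The choice used the annotation and no expression difference. Seeds of wild type (Columbia) and of 2 mutants hypersensitive to the hormone abscisic acid (ABA), ahg1-1 and ahg3-1, were kept for 4 days at 4 °C and then grown for 2 days at 23 °C with 16 h of light on MS medium with 2% sucrose. The mutations lie in related but separate PP2C protein phosphatase genes. Each of 4 groups had 2 arrays: untreated wild type, and the 3 genotypes grown with 0.5 uM ABA. Each mutant is represented by 1 allele, and neither was measured here without ABA, so a mutant difference is always a difference on ABA.

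CHR proteins are ATPases of the Snf2 family, motors that use ATP to slide, space, evict or exchange nucleosomes or to open DNA for other enzymes. Different branches do different work: ISWI-type and SWI/SNF-type members act on nucleosomes at genes, others act in DNA repair and replication, and a plant-specific branch serves RNA-directed DNA methylation, the pathway in which small RNAs guide methylation to transposons and repeats. In seeds, Snf2 ATPases such as BRM and PKL are known to keep ABA-response and embryo programmes in check while the seedling establishes itself. ABA holds back germination, and clade A PP2C enzymes keep its signalling low.

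Values are log2 expression, 1 value per probe set and array, with array medians between 5.91 and 5.97. Whether paired arrays stem from separate cultures is not stated, so p-values reflect a spread that may be technical. Arrays of 1 replicate number deviated together from their group means, with r from 0.50 to 0.84 across probe sets over 6 pairs of groups. These are bulk samples, in which fewer cells of a type and less RNA per cell cannot be told apart. Markers of stage separated wild type without ABA from the other groups. The mean log2 level of 7 photosynthesis genes was 11.77 and 11.63 in wild type without ABA and between 6.42 and 9.53 on the other 6 arrays, while 6 seed reserve and LEA genes averaged 4.84 and 5.56 without ABA and between 10.81 and 12.67 with it. In the ABA comparison all 6 seed genes passed as higher, where 0.692% of all probe sets did, and 3 of the 7 photosynthesis genes as lower, where 0.679% did. When replicate number entered as a block, 6 of each passed, where 6.1% of all probe sets did as higher and 6.48% as lower. The marker lists were chosen with earlier results of these data known, so these counts describe the stage of the samples and do not test it.

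CHR17, an ISWI-type remodeler that spaces nucleosomes together with its close relative CHR11, had the widest differences of the 7 genes. It stood at 4.88 and 7.40 (log2, replicate numbers 1 and 2) in wild type without ABA, 5.60 and 7.97 in wild type on ABA, 6.47 and 8.24 in ahg1-1 and 6.72 and 8.35 in ahg3-1. The groups overlapped, because every number 2 array lay above every number 1 array. Within each number, however, the 4 groups fell in the same order, lowest in wild type without ABA and highest in ahg3-1. An identical order in both numbers was found for 12.7% of all probe sets. The particular order of CHR17, fixed from its own values, was found for 1.42%, so that share does not measure how rare the match is. Among the 7 genes only CHR17 kept 1 order in both numbers, which lies near the 12.7% of all probe sets.

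The group means of CHR17 were 6.14 ± 1.78, 6.79 ± 1.68, 7.36 ± 1.25 and 7.54 ± 1.15 (SD, n = 2) in that order, and no neighbouring means differed beyond their spread. With ABA the wild-type value differed by 0.65 ± 1.17 (SE; 95% interval -2.14 to 3.43; limma, adjusted p = 0.96). The ABA difference was 0.72 within number 1 and 0.57 within number 2. With the replicate number as a block the same difference had an SE of 0.24 and an interval of 0.079 to 1.21, but it did not pass over all probe sets (limma, adjusted p = 0.14). On ABA, ahg1-1 differed from wild type by 0.57 (0.87 within number 1, 0.27 within number 2) and ahg3-1 by 0.75 (1.13 and 0.38). With the block these had intervals of 0.0064 to 1.14 and 0.19 to 1.32, and neither passed (limma, adjusted p = 0.58 and 0.88). The mutants differed from each other by -0.18 (-0.25 and -0.11 within numbers 1 and 2). Leaving out 1 array at a time moved the ABA difference between -0.61 and 1.90, since it then compared unequal replicate numbers.

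**Figure D1:**
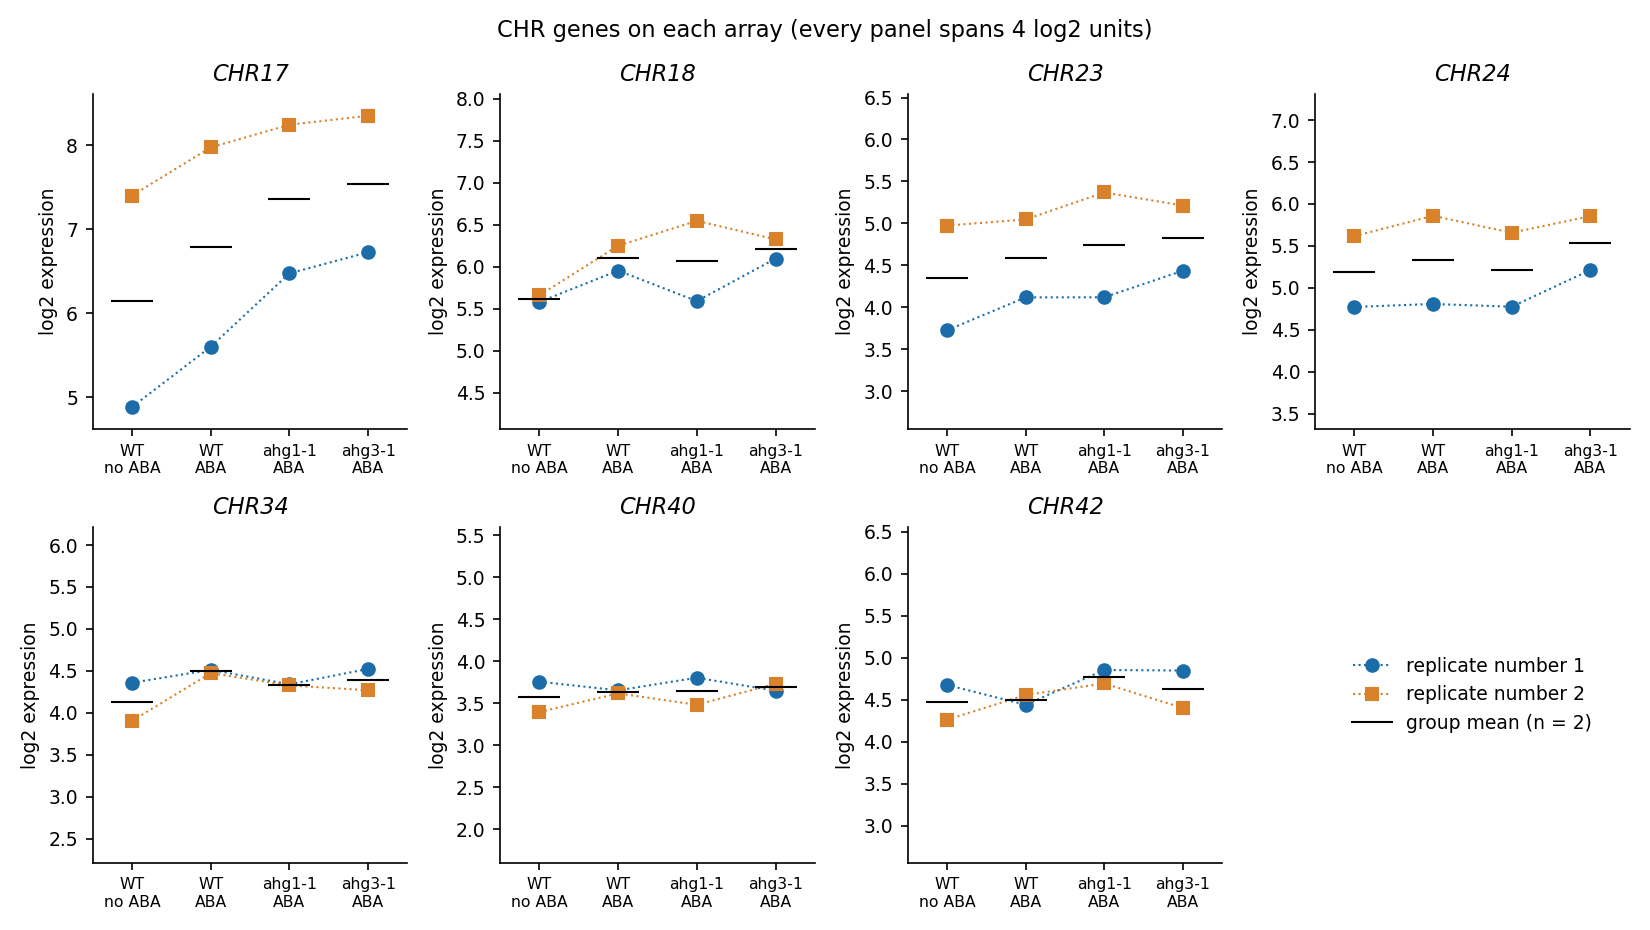
Log2 expression of the 7 CHR genes (vertical axis) on each array of the 4 groups (horizontal axis), with circles for replicate number 1, squares for number 2 and bars for the group mean; dotted lines join arrays of 1 number as a guide. Every panel spans 4 log2 units. CHR17, CHR23 and CHR24 show number 2 above number 1 in every group, CHR17 with the same group order in both numbers, while CHR34, CHR40 and CHR42 vary little over the 8 arrays.

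CHR23, a SWI/SNF-type ATPase that acts with CHR12 in embryo and stem cell maintenance, gave a similar picture at smaller size. Its arrays stood at 3.73 and 4.97 in wild type without ABA, 4.12 and 5.05 in wild type on ABA, 4.12 and 5.37 in ahg1-1 and 4.44 and 5.21 in ahg3-1. As for CHR17, the group means rose in the order of wild type without ABA (4.35), wild type on ABA (4.58), ahg1-1 (4.74) and ahg3-1 (4.82), with SDs between 0.55 and 0.88, so the groups overlapped throughout. Within number 2 the mutants changed places. The ABA difference was 0.23 ± 0.61 (SE), 0.39 within number 1 and 0.073 within number 2. The interval of -1.22 to 1.69 leaves room for differences of more than 1 log2 unit in either direction, and even with the block it ran from -0.18 to 0.64.

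CHR18 and CHR24 belong to branches linked with DNA repair and replication. CHR18 is the plant relative of SMARCAL1, which in human cells rewinds DNA at stalled replication forks. It stood at 5.58 and 5.66 in wild type without ABA, 5.95 and 6.25 in wild type on ABA, 5.59 and 6.55 in ahg1-1 and 6.10 and 6.33 in ahg3-1. Both wild-type arrays with ABA lay above both without it, a difference of 0.48 ± 0.33 (SE; 95% interval -0.30 to 1.27) at 0.37 and 0.59 within numbers 1 and 2. It did not pass (limma, adjusted p = 0.72, or 0.22 with the block). The ahg1-1 arrays of CHR18 lay apart from each other, 1 near wild type without ABA and 1 above all others, so its mean difference from wild type on ABA was -0.03 with opposite signs in the numbers (-0.36 and 0.30).

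CHR24, which the gene table also lists under ERCC6 and RAD26, names of a factor that in human and yeast cells serves repair of transcribed DNA, stood at 4.77 and 5.62 in wild type without ABA, 4.81 and 5.86 in wild type on ABA, 4.78 and 5.66 in ahg1-1 and 5.21 and 5.86 in ahg3-1. In number 1 the first 3 groups were nearly level and ahg3-1 was higher. In number 2 the 4 groups spanned only 5.62 to 5.86. The ABA difference was 0.14 ± 0.50 (SE). Of the 4 contrasts CHR24 differed most between ahg1-1 and ahg3-1, at -0.32 ± 0.50 (-0.44 and -0.20 within the numbers), with a 95% interval of -1.52 to 0.89, or -0.69 to 0.052 with the block.

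CHR34, CHR40 and CHR42 belong to the DRD1 and CLASSY branch. CHR42 and CHR40 are known as CLSY2 and CLSY4, which bring RNA polymerase IV to its loci in RNA-directed DNA methylation. Their probe sets were dim: the 25th percentile of the arrays lay between 4.46 and 4.68, CHR40 (3.40 to 3.80) and CHR34 (3.91 to 4.52) lay below their array's percentile on all 8 arrays, and CHR42 (4.26 to 4.85) lay near it. CHR23 was dim as well, with its 4 number 1 arrays below that percentile. What dim signal does to these differences was not tested. No order of expression among genes is read from these levels.

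CHR34 stood at 4.36 and 3.91 in wild type without ABA and at 4.51 and 4.47 in wild type on ABA. The groups did not overlap, with a difference of 0.36 ± 0.22 (SE; 95% interval -0.17 to 0.89; limma, adjusted p = 0.65). With the block the interval of CHR34 was -0.030 to 0.75 (limma, adjusted p = 0.22). In ahg1-1 it stood at 4.34 and 4.33, below both wild-type arrays on ABA by 0.17 and 0.15, and in ahg3-1 at 4.52 and 4.27. The ahg1-1 difference of -0.16 ± 0.22 was smaller than its SE.

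CHR42 stood at 4.68 and 4.26 in wild type without ABA, 4.44 and 4.56 in wild type on ABA, 4.85 and 4.69 in ahg1-1 and 4.85 and 4.40 in ahg3-1. Both ahg1-1 arrays lay above both wild-type arrays on ABA, by 0.28 ± 0.24 (SE; 95% interval -0.31 to 0.86, or -0.15 to 0.70 with the block). The ABA difference of 0.03 had opposite signs in the numbers (-0.24 and 0.30). CHR40 stood at 3.76 and 3.40 in wild type without ABA, 3.65 and 3.62 with ABA, 3.80 and 3.48 in ahg1-1 and 3.65 and 3.73 in ahg3-1. Its group means spanned 0.11 log2 units, less than the SD of wild type without ABA (0.26), and none of its differences from wild type on ABA had the same sign in both numbers.

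Across the family, wild type on ABA had higher means than wild type without it for all 7 genes, with differences from 0.03 to 0.65. The median was 0.23, against 0.05 over all 22246 probe sets, of which 56.8% lay above 0. By limma 0 of 7 genes passed at an adjusted p below 0.05, where 1.37% of all probe sets did (0.692% higher and 0.679% lower), and 0 of 7 lay below an unadjusted p of 0.05, where 12.8% of all did. When replicate number entered as a block, 0 of 7 passed as well, where 12.6% of all probe sets did (6.1% higher and 6.48% lower), and 1 (CHR17) lay below an unadjusted p of 0.05, where 26.6% of all did. CHR17, CHR18, CHR23, CHR24 and CHR34 were higher with ABA within both numbers, 5 of 7 where 38.5% of all probe sets were, and 0 of 7 were lower within both, where 26.3% were. The arrays of CHR18 and CHR34 were higher without overlap, where 18.4% of all probe sets were, and those of 0 genes were lower without overlap, where 14.3% were. The median within number 1 was 0.15 and within number 2 0.30. The seed reserve and photosynthesis markers moved with this contrast, so germination stage and a direct action of the hormone cannot be told apart here.

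**Figure D2:**
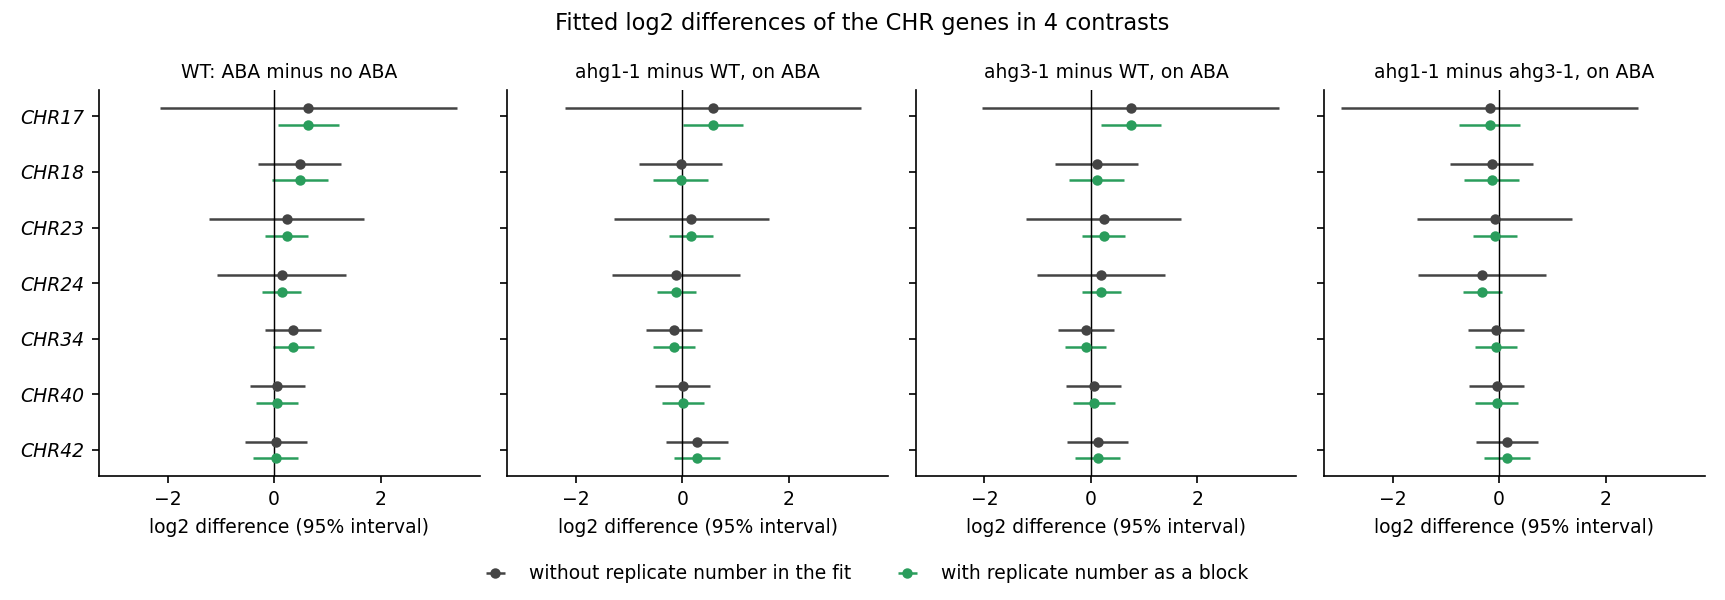
Fitted log2 differences (horizontal axis, points) with 95% intervals (lines) of the 7 CHR genes in 4 contrasts, without the replicate number in the fit (dark) and with it as a block (green). All dark intervals include 0; the block narrows those of CHR17, CHR23 and CHR24 most, and the green intervals of CHR17 lie above 0 in the first 3 contrasts before adjustment over all probe sets.

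In ahg1-1 against wild type on ABA the 7 differences ran from -0.16 to 0.57 with a median of 0.0073, against 0.012 over all probe sets. By limma 0 of 7 genes passed, where 0% of all probe sets did, and 0 of 7 lay below an unadjusted p of 0.05, where 1.47% of all did. With the block 0 of 7 passed too, where 0.0135% of all did, each of them higher (0.0135%). CHR17, CHR23 and CHR42 were higher within both numbers, where 31.3% of all probe sets were, and CHR24 and CHR34 lower, where 25.2% were. Within number 1 the difference was only 0.0014 for CHR23 and -0.033 for CHR24. The arrays of CHR42 (higher) and CHR34 (lower) did not overlap with wild type, where 11% and 8.66% of all probe sets did not in those directions. In ahg3-1 the differences ran from -0.10 to 0.75, with 6 of 7 above 0, where 50.5% of all probe sets were, and a median of 0.13 against 0.0027 over all probe sets. The median was 0.32 within number 1 and 0.08 within number 2. Again 0 of 7 genes passed by limma, where 0% of all probe sets did, and 0 of 7 lay below an unadjusted p of 0.05, where 0.081% of all did. CHR17, CHR18 and CHR23 were higher within both numbers, where 30.8% of all probe sets were, and 0 were lower, where 29% were. No gene had ahg3-1 and wild-type arrays without overlap, where 7.39% of all probe sets were higher and 8.21% lower without overlap. Stage markers differed in both mutant contrasts, more within number 1 than number 2, though 0 of them passed in either. All 7 photosynthesis genes were lower within both numbers in ahg1-1 (median -1.67) and in ahg3-1 (median -1.14). Their medians within numbers 1 and 2 were -2.31 and -0.99 in ahg1-1 and -1.73 and -0.55 in ahg3-1. The 6 seed reserve and LEA genes had medians of 0.74 and 0.56. Within numbers 1 and 2 these were 1.02 and 0.42 in ahg1-1. In ahg3-1 they were 1.07 and 0.10, with 4 of 6 genes higher within both. The part of the stage markers in the members' values was not tested. These comparisons share their wild-type arrays on ABA, so their values stand side by side and are not evidence for each other.

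The difference between the mutants, which tests whether their effects differ, ran from -0.32 (CHR24) to 0.15 (CHR42) with a median of -0.08. By limma 0 of 7 genes passed, where 0% of all probe sets did, and 0 of 7 lay below an unadjusted p of 0.05, where 0.41% of all did. With the block 0 of 7 passed, where 0.0045% of all probe sets did, as higher (0.0045%). CHR42 was higher in ahg1-1 within both numbers, where 29.8% of all probe sets were, and CHR17 and CHR24 lower, where 24.3% were. No gene had mutant arrays without overlap, where 11.3% of all probe sets were higher and 7.17% lower. For CHR18, CHR23, CHR34 and CHR40 the sign differed between numbers 1 and 2. With the block the 7 intervals for this contrast lay within -0.75 and 0.58.

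The larger part of the variation in CHR17, CHR23 and CHR24 lay between the replicate numbers, an observation made after the values were seen. The labels do not say what a number marks, so number 2 minus number 1 describes these arrays and no condition. CHR17 was higher in number 2 by 2.52 and 2.37 in wild type without and with ABA, 1.77 in ahg1-1 and 1.63 in ahg3-1, a mean of 2.07 ± 0.17 (SE; limma with group and number, adjusted p = 0.00077). Only 0.17% of probe sets had a shift as high. CHR23, whose number 1 arrays lay below their 25th percentile, was higher by 1.05 ± 0.12, with 0.78 to 1.25 in the single groups, and CHR24 by 0.85 ± 0.11, with 0.64 to 1.05 (adjusted p = 0.0015 and 0.0020). These 3 of 7 genes passed, where 37.7% of all probe sets did, so no trait of the family is read from that count. All 3 were higher in number 2, where 20.3% of all probe sets were, and 0 passed as lower, where 17.4% did. CHR17, CHR18, CHR23 and CHR24 were higher in number 2 in all 4 groups, where 26% of all probe sets were, and CHR34 was lower in all 4, where 29.7% were. For CHR17, CHR23 and CHR24 all number 2 arrays lay above all number 1 arrays, where 13.8% of all probe sets did so.

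Of the sum of squares over the 8 arrays, replicate number took 76.2% for CHR17, 86.4% for CHR23 and 88.7% for CHR24, and the 4 groups 21.2%, 10.3% and 8.79%. Over all probe sets the median shares were 34.5% for number and 37.1% for group. CHR18, at 32.5% for number and 43.5% for group, and CHR34, at 26.2% and 50.6%, varied more between groups. CHR40 had most of its variation in the remainder (52.6%), and CHR42 was spread nearly evenly. With 3 degrees of freedom for groups and remainder each, but 1 for number, these shares describe and do not test.

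**Figure D3:**
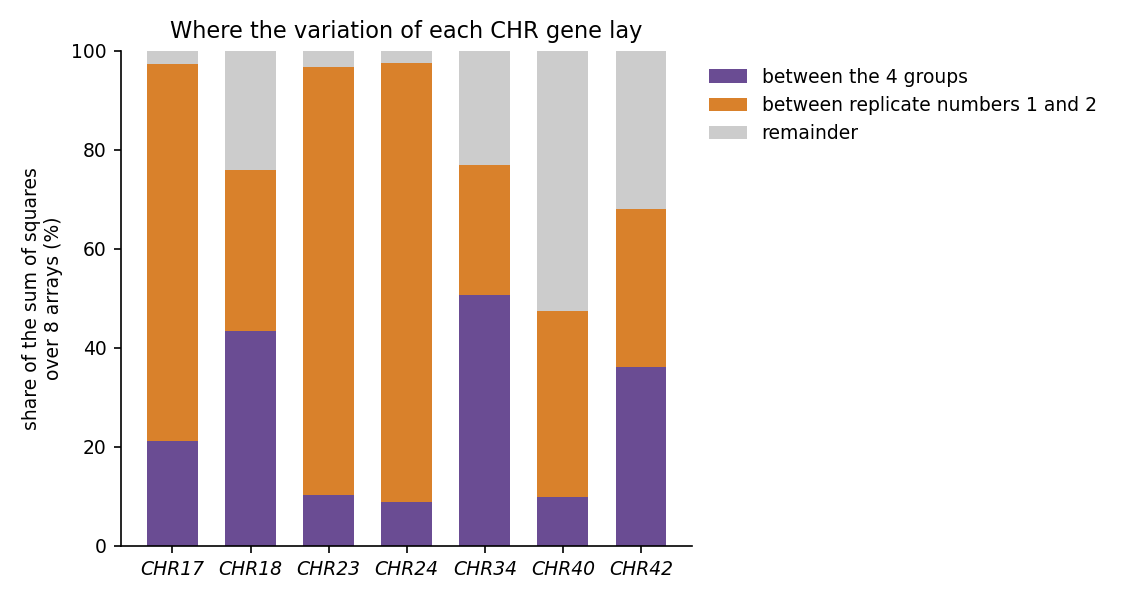
Share of the sum of squares over the 8 arrays (vertical axis, percent) that lay between the 4 groups, between replicate numbers 1 and 2 and in the remainder, for each CHR gene. Number holds 76.2% to 88.7% for CHR17, CHR23 and CHR24 and 26.2% to 37.6% for the other genes.

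Other measures moved with the replicate number as well. The 75th percentile of the arrays was 7.23 to 7.35 in number 1 and 7.43 to 7.49 in number 2. Beside 20.3% of all probe sets that passed as higher in number 2 and 17.4% as lower, 4 of the 7 photosynthesis genes passed as lower and 0 as higher (median -0.86), of the 6 seed reserve and LEA genes 3 passed as higher and 0 as lower (median 0.71), and both root hair expansins, EXPA7 and EXPA18, passed as lower (-1.52 and -1.55). Of 4 cell division and replication genes the kinase gene AUR1 and the replication gene PRL passed as higher by 0.37 and 0.76, and the seed coat gene BAN did not pass (-0.44). These marker shifts are averages over groups and were not alike in all groups. The photosynthesis mean in wild type was 9.53 in number 1 and 7.53 in number 2 on ABA, but 11.77 and 11.63 without it. EXPA7 and EXPA18 shifted by -2.74 and -3.13 in wild type on ABA, but by 0.15 and -0.11 without it. Other markers did shift without ABA, LEA18 by 2.62 and PORB by 1.76, but PAP85 by -0.33 and RCA by -0.56. The seed reserve and LEA mean in wild type was 4.84 and 5.56 without ABA and 10.81 and 12.22 on it. CHR17 shifted by 2.52 in wild type without ABA. The part of the marker shifts in the CHR17, CHR23 and CHR24 shifts was not tested. For CHR17, CHR23 and CHR24 the shifts were 1.91, 1.18 and 0.92 after cyclic loess and 2.02, 1.15 and 0.89 after quantile normalization of the deposited values.

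Correlations between members are given as a description. Over the 8 arrays, which share group and number, CHR17 correlated with CHR23 at r = 0.97 and with CHR24 at 0.92, and CHR23 with CHR24 at 0.95. After the mean of each number was removed these became 0.88, 0.62 and 0.58. CHR18 and CHR34 went from 0.30 to 0.84 by the same step. All 3 genes of the DRD1 and CLASSY branch had negative r with CHR17 over the 8 arrays (CHR34 -0.28, CHR40 -0.45, CHR42 -0.25) and positive ones within numbers (0.41, 0.23 and 0.61).

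Genes with the most similar profiles were sought for CHR17, CHR18 and CHR23, which had the widest ranges of group means, among 13071 other probe sets with 1 named gene. Closest to CHR17 were SDH1-1, the flavoprotein subunit of mitochondrial succinate dehydrogenase, AT4G11160 and AT4G02400, each with r = 0.998 over 8 arrays, and 0.99 for each within numbers. SDH1-1 stood at 8.70 and 10.03 in wild type without ABA and 9.67 and 10.56 in ahg3-1. Its number shift was 1.08, and AT4G02400 had one of 2.02, close to that of CHR17. In all, 537 of the 13071 probe sets reached an r of at least 0.95 with CHR17, so such a profile was not particular to it. Closest to CHR23 were CUL4, the scaffold of a ubiquitin ligase, AT3G01160 and AT1G52320, each with r = 0.99, and 283 probe sets reached 0.95. Closest to CHR18 were AT1G76630, CPUORF47 and PSD, an exportin for tRNA, with r between 0.97 and 0.98, and only 8 probe sets reached 0.95.

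Other chromatin genes were taken from lists of Snf2 ATPases, remodeling complex subunits, histone-modifying enzymes, chaperones and silencing factors. The lists had 206 entries, some of them synonyms of 1 gene. Outside the CHR members, 13 of their genes had a probe set naming that gene alone. Histone acetyltransferases and the Polycomb group had 0. All 13 had higher means with ABA in wild type, from 0.02 to 0.59 with a median of 0.29. By limma 0 passed in either direction, where 1.37% of all probe sets did, and 0 lay below an unadjusted p of 0.05, where 12.8% did. With the block 0 passed, where 12.6% of all probe sets did, and 5 lay below an unadjusted p of 0.05, where 26.6% of all did. In each list the gene with the smallest p in this comparison was RAD5, a Snf2 ATPase of DNA damage tolerance (0.43 ± 0.22, SE), BSH, the SNF5-type core subunit of SWI/SNF (0.59 ± 0.32), SWC2 of the SWR1 complex, which installs the histone variant H2A.Z (0.58 ± 0.58), the histone deacetylase HDA15 (0.20 ± 0.19), the histone chaperone SGA2, also called ASF1A (0.45 ± 0.20), and the DNA demethylase DME (0.29 ± 0.65), with adjusted p between 0.44 and 0.97.

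BSH had the largest ABA difference of these genes. It stood at 6.04 and 6.57 in wild type without ABA, 6.51 and 7.29 in wild type on ABA, 7.36 and 7.53 in ahg1-1 and 7.26 and 7.42 in ahg3-1. Like CHR17 it kept 1 group order in both numbers, as 12.7% of all probe sets did, but with ahg1-1 highest. Its ahg1-1 arrays lay above both wild-type arrays on ABA, as 11% of all probe sets did (0.55 ± 0.32, SE; limma, adjusted p = 1.00, or 0.54 with the block). In the mutant contrasts 0 of 13 passed by limma, with or without the block, where 0% of all probe sets passed without it. With the block 0.0135% of all probe sets passed for ahg1-1, 0% for ahg3-1 and 0.0045% between the mutants. The median differences were 0.17 for ahg1-1 and 0.14 for ahg3-1 against wild type, and 0.05 between the mutants.

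The other chromatin genes were compared between replicate numbers too. Among the 13, the Snf2 ATPases INO80, of the complex of that name, and ATRX, a histone H3.3-linked remodeler with the synonym CHR20 in the gene table, were higher in number 2 by 1.10 ± 0.11 and 1.46 ± 0.14 (SE). INO80 stood at 5.27 on both number 1 wild-type arrays and at 6.19 and 6.36 on those of number 2. ATRX kept the same group order as CHR17 in both numbers, from 4.47 and 6.19 in wild type without ABA to 5.38 and 6.50 in ahg3-1. ATRX was named after its values were seen, and 1.42% of all probe sets had this order in both numbers. In all, 5 of 13 passed as higher in number 2 (INO80, ATRX, BSH, SWC2 and DME) and 0 as lower, beside 20.3% and 17.4% of all probe sets. In either direction 37.7% of all probe sets passed. The count of 5 of 13 lies near that share, so no trait of these genes is read from it.

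**Figure D4:**
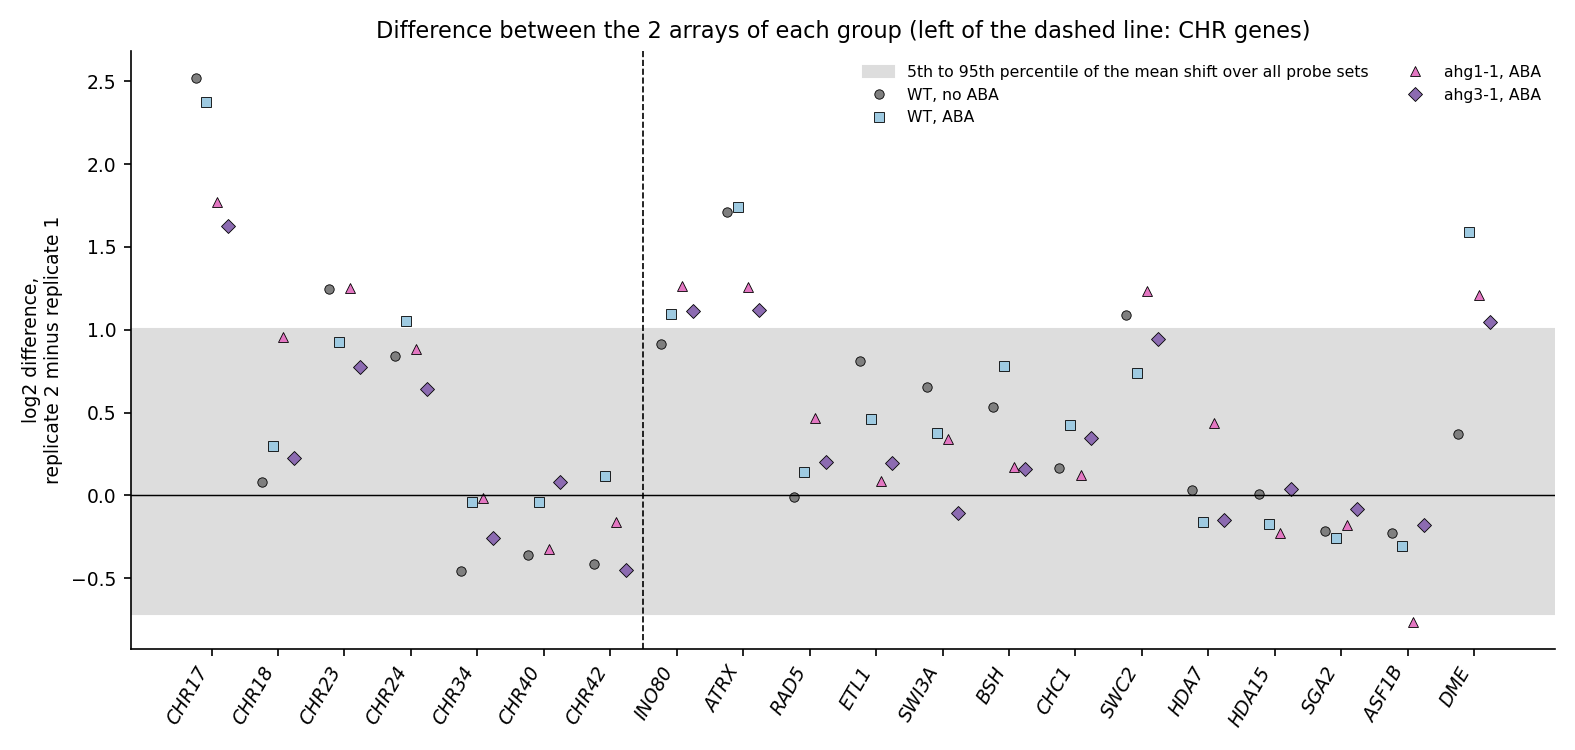
Log2 difference between the arrays of replicate number 2 and number 1 (vertical axis) in each of the 4 groups (symbols), for the 7 CHR genes and, right of the dashed line, the 13 other chromatin genes. The grey band is the 5th to 95th percentile over all probe sets of the shift averaged over groups (-0.72 to 1.00); all 4 symbols of CHR17 and ATRX lie above it.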

How the data were processed

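Biotin-labelled RNA of 8 samples was measured on 1-colour arrays. The deposited values are log2 expression values, made by the authors with RMA, which corrects background and summarises each probe set, per the submitters' processing notes; the version is not given in the sources used here. They were used as deposited, without a filter, with 0 columns left unused and 0 pairs of identical arrays. The 75th percentiles ran from 7.23 to 7.49, so the deposited arrays did not share the same quantiles. Groups and replicate numbers came from the sample titles, since the free-text descriptions repeat 1 wording for all samples. The number of arrays limits the precision.

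Gene names are those of the platform annotation, matched by Entrez gene number to the TAIR10.1 gene table. Of the probe sets, 13072 had 1 gene (12998 found in the table), 503 several, and 8671 are unnamed here. All 7 CHR symbols matched the table. Group means over all 8 arrays were fitted by limma 3.58.1 under R 4.3.3 (4 residual degrees of freedom), with Benjamini-Hochberg adjustment over 22246 probe sets, two-sided, and a threshold of 0.05. Same-numbered arrays deviated together in all 6 pairs of groups, so the fit was repeated with replicate number as a block. Values come from the fit without the block, which leaves this pairing out, unless the block is named. The block is given beside several genes and in the plot of contrasts. The members, lists and the rule for named genes (all members; per chromatin list the called genes or the one with the smallest p with ABA; the 3 closest profiles of 3 members) were chosen with earlier results of these data known. ATRX, INO80 and the single marker genes were named after their values were seen. The marker lists were seed reserve and LEA, photosynthesis, seed coat, root hair, cell division and endosperm genes, the last with 0 measured genes.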

Additional observations from a re-analysis of the deposited data

How the results depend on the processing

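No CHR gene passed the test in any of the 4 contrasts under any alternative run: the replicate number as a block, cyclic loess, leaving out dim probe sets (mean log2 below 5, which removed 4 of the 7 genes), only the 4 arrays compared, a mean-variance trend, and the 8 fits without 1 array. The lowest adjusted p was 0.14, and the count of members called stayed at 0 throughout. The count of all probe sets called with ABA went from 305 to 2799 with the replicate block and to 33 with only the 4 arrays, and without 1 array it ranged from 51 to 388; for ahg1-1 and for ahg1-1 against ahg3-1 it went from 0 to 3 and to 1 with the replicate block. The median of the members with ABA was 0.48 without dim probe sets, because only 3 genes were left. Without 1 array the medians ranged from -0.029 to 0.63 with ABA, from -0.31 to 0.33 for ahg1-1, from -0.077 to 0.26 for ahg3-1 and from -0.62 to 0.12 between the mutants.

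The sign of 309 of 348 member values was kept, but most of these signs could not change, so that count does not measure stability. The replicate block, the mean-variance trend, leaving out dim probe sets and using only the arrays compared left each difference as it was. So did leaving out an array of a group outside the contrast. Only cyclic loess and leaving out an array of the contrast could move a sign. The 39 others all came from fits without 1 array of the contrast, which set unequal replicate numbers against each other. They touched 23 of 28 results. With ABA the ranges were -0.61 to 1.90 for CHR17, -0.39 to 0.86 for CHR23, -0.39 to 0.66 for CHR24, -0.12 to 0.24 for CHR40 and -0.18 to 0.24 for CHR42. For ahg1-1 they were -0.61 to 1.76 for CHR17, -0.51 to 0.44 for CHR18, -0.46 to 0.79 for CHR23, -0.64 to 0.41 for CHR24 and -0.15 to 0.17 for CHR40. For ahg3-1 they were -0.44 to 1.94 for CHR17, -0.039 to 0.26 for CHR18, -0.22 to 0.71 for CHR23, -0.32 to 0.73 for CHR24, -0.22 to 0.031 for CHR34 and -0.10 to 0.35 for CHR42. Between the mutants they were -1.06 to 0.71 for CHR17, -0.62 to 0.34 for CHR18, -0.70 to 0.54 for CHR23, -0.76 to 0.12 for CHR24, -0.19 to 0.064 for CHR34, -0.21 to 0.11 for CHR40 and -0.074 to 0.37 for CHR42.

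The shifts between replicate numbers were examined under alternatives chosen after seeing the data. CHR17, CHR23 and CHR24 passed under all of them, and the count of members called was 3 to 4 without 1 array, with CHR18 (0.49) passing without either array of wild type on no ABA. The mean of all probe sets of a gene could not differ, since each gene had 1. CHR23, CHR34, CHR40 and CHR42 were dim, with a mean log2 below 5.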
